A study of Mus musculus with 2 samples.

Results

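The 10 genes described here encode integrin subunits of retinal myeloid cells, and they were chosen by gene symbol: Itgam, Itgb2, Itgax, Itgal, Itga4, Itgb1, Itgav, Itgb5, Itga6 and Itga9. They are 10 of the 31053 genes in the count tables, and each symbol stood on 1 row. Retinas were taken at P17 from C57BL/6j pups with oxygen-induced retinopathy (OIR), a model in which high oxygen stunts the young retinal vessels and the return to room air drives new, misplaced ones, or from pups kept in room air (RA). Cells carrying both CD11b and F4/80 at their surface were sorted from pooled retinas, and 1 single-cell library was made per condition. Each unique molecular identifier (UMI) stands for 1 captured transcript.

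Integrins are pairs of an alpha and a beta subunit that span the cell membrane and tie the cell to matrix or to other cells. Leukocytes carry the beta 2 family, in which Itgb2 pairs with Itgal (LFA-1, which binds ICAMs), Itgam (Mac-1, also complement receptor 3) or Itgax (complement receptor 4). Itga4 with Itgb1 forms VLA-4, which holds monocytes to VCAM-1 on vessel walls, and Itga4 also pairs with Itgb7. Itgav with Itgb5 binds vitronectin and other ligands with an RGD motif and takes part in the uptake of dying cells and the activation of TGF-beta. Itga6 with Itgb1 binds laminin of basement membranes, and Itga9 with Itgb1 binds tenascin C and osteopontin. In the retina, microglia settle before birth, whereas monocytes enter from the blood.

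Levels are UMIs of a gene summed over the cells of a class in 1 library, given in counts-per-million (CPM) of the UMIs of that class. The values in parentheses after a level, a ratio or a share are its exact 95% interval, which covers counting error and neither the spread between mice nor that between preparations. With 1 library per condition no test was possible and none was made. Reads came from the 3′ end of each transcript, so a long gene gives no more UMIs than a short one, but the share of transcripts captured may still differ from gene to gene. After filters 2474 of the 2708 cells were left, of which 1919 lay in clusters where CD45 (Ptprc) was seen in at least 10% of cells. Of these, 1846 fell into 4 classes: 1357 microglia, 128 dividing cells, 217 macrophages and 144 monocytes. The last 3 classes were named by the marker genes that led their clusters, and so was the microglial cluster led by Clcf1 (313 cells). The other microglial clusters were named by C1qa in at least 75% of cells and low macrophage markers. The integrins, their activators and their ligands were kept out of the genes that shaped the clusters. Depth differed, with a median of 10220 UMIs per RA microglial cell and 6650 per OIR microglial cell. Malat1, a nuclear RNA, stood at 18242 CPM in RA microglia and 6357 CPM in OIR microglia, and it was lower in OIR in each of the other 3 classes as well. No cell barcode was shared by the libraries, and doublet calling marked 4 RA cells and 2 OIR cells, which were left in.

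The class names were read against their markers. In microglia the 12 markers of that type summed to 24548 CPM in RA and 27505 CPM in OIR, with each marker seen, while the 14 macrophage markers summed to 347 and 282 CPM. Macrophages had 8201 and 7729 CPM of the macrophage markers, and also 13352 and 15106 CPM of the microglial ones. In them P2ry12, Tmem119, Siglech and Serinc3 summed to 2472 and 1850 CPM, against 4277 and 2763 CPM in microglia. The part of genes shared by tissue macrophages, of free RNA and of cells of mixed content in these sums was not tested. Monocytes had 15094 and 16306 CPM of the 20 monocyte markers, against 1677 and 2921 CPM in microglia. Of the sums in monocytes, the marker Lyz2 alone gave 34.8 CPM in RA and 5636 CPM in OIR, so the near-equal sums do not show like levels of each marker. Monocytes also had 5222 and 9647 CPM of the microglial markers, and the integrins are therefore also given for monocytes with and without C1qa. The dividing cells, led by Top2a and Ube2c, had 17768 and 20797 CPM of the microglial markers, between the sums of macrophages and of microglia. Of the macrophage markers they had 1291 and 1203 CPM, and of the monocyte markers 3947 and 3310 CPM, each above microglia. They numbered 16 in RA and 112 in OIR, and the RA ones also had 6235 CPM of the 7 neutrophil markers, against 72.6 CPM in OIR. In monocytes these summed to 1909 and 458 CPM, and the 9 dendritic cell markers to 295 and 239 CPM. The part of these other cell types in the integrin levels was not tested. The CD11b used for the sort is the product of Itgam, so cells were selected for that protein before sequencing, although rods were found among them, and the level of Itgam among the sorted cells carries this selection.

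The promoters of Itgam, Itgb5 and Itga4 are shown because these 3 genes stood for 3 patterns of level, that of a subunit shared by the sorted classes, of one highest in microglia and of one highest in monocytes. Each is the 300 bases from 250 before to 50 after the gene's start, from RefSeq on GRCm38.p6, on the plus strand. Capitals mark GAGGAA or, for the opposite strand, TTCCTC, the core of the sites of PU.1, the main transcription factor of myeloid cells. The windows are chr7:128062390-128062689, chr16:33829415-33829714 and chr2:79255176-79255475.
Itgam: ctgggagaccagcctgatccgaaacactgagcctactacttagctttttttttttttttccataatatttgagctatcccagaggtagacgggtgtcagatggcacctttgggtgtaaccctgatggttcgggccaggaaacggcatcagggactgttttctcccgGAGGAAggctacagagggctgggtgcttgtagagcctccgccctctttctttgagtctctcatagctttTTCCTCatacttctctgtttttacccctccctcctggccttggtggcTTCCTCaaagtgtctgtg
Itgb5: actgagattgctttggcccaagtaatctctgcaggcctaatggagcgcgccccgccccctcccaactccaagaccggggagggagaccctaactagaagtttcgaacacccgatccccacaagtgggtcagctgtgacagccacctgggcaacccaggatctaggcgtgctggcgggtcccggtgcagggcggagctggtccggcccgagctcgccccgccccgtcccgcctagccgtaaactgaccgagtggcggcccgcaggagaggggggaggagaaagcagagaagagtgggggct
Itga4: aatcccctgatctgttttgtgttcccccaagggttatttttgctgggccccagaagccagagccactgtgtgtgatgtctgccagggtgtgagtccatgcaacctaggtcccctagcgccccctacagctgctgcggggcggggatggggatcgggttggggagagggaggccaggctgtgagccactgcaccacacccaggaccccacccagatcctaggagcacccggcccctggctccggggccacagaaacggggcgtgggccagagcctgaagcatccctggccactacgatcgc
The Itgam window held 3 matches and the Itgb5 and Itga4 windows 0. Of the 27025 promoters listed, 28.3% held at least 1. Sequences were listed for 7 of the 10 genes, and among the other 4 of these Itgav had 2 matches, Itgb1 had 1 and Itgax and Itga9 had 0. The windows of Itgav and Itga9 begin at bases 83724147 and 118711442, inside the genes, whose spans start at 83722303 and 118606709. Their counts are therefore not for the start of the span. Itgal, Itgam and Itgax lie on chromosome 7 in that order, with Itgad after them. Itgal spans bases 127296139 to 127335137, Itgam 128062640 to 128118491 and Itgax 128129526 to 128150657, so that Itgam and Itgax are direct neighbours.

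Itgb5 was the most abundant of the 10 integrins in microglia, dividing cells and macrophages of both libraries, though in RA dividing cells its interval overlapped that of Itgam. Itgal and Itga4 divided monocytes from the rest. In RA microglia the order of levels was Itgb5, Itgam, Itgb2, Itgb1, Itga6, Itgav, Itga9, Itgax, Itga4 and Itgal. The intervals of Itgb1 and Itga6 overlapped, as did those of Itga4 and Itgal, and the other neighbours in this order were apart. In OIR microglia the first 6 places were the same and Itgax stood before Itga9. In RA monocytes Itga4, Itgb2 and Itgal led with levels inside each other's intervals, while in OIR monocytes Itgb2 led, followed by Itgam, Itgb5 and Itga4, of which Itgam and Itgb5 overlapped, as did Itgb5 and Itga4. The 10 genes together made up 2429 CPM in RA microglia and 2313 CPM in OIR microglia. Their sum was 1464 and 1396 CPM in macrophages, 1869 and 1877 CPM in dividing cells and 2819 and 2848 CPM in monocytes, and thus differed more between classes than between libraries.

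**Figure D1:**
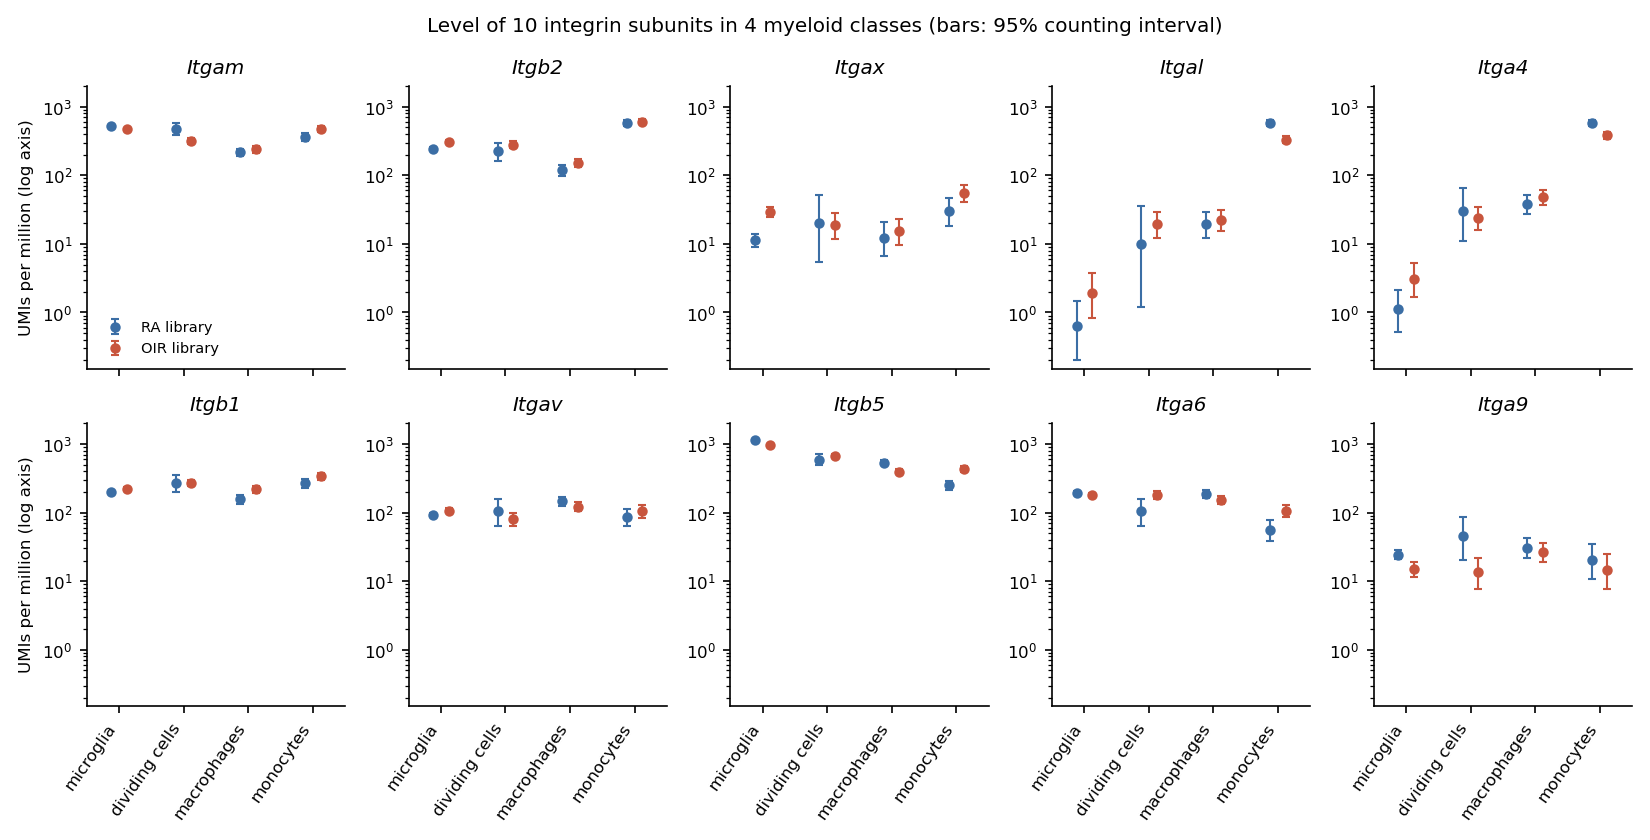
Level of each integrin subunit in CPM (log axis) in microglia, dividing cells, macrophages and monocytes, with the RA library in blue and the OIR library in red and bars for the exact 95% counting interval. Itgal and Itga4 stood between 331 and 585 CPM in monocytes and at or under 3.12 CPM in microglia. Over the classes and libraries Itgb1 lay between 158 and 338 CPM and Itgav between 79.4 and 146 CPM.

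Itgam, the alpha chain of Mac-1, was found at 519 CPM (503 to 535) in RA microglia and 465 CPM (444 to 486) in OIR microglia. Its level was 473 CPM (383 to 579) in RA dividing cells and 317 CPM (285 to 350.4) in OIR dividing cells. Macrophages had the lowest levels of Itgam, 216 CPM (189.8 to 245) in RA and 238 CPM (214 to 265) in OIR. Monocytes lay between in RA, at 360.3 CPM (315 to 410.2), and in OIR, at 476 CPM (432 to 523), they overlapped microglia. A UMI of Itgam was seen in 91.7% of RA microglia and 66.3% of RA macrophages.

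Itgb2, the beta chain that Itgam, Itgax and Itgal share, had another order. It was highest in monocytes, at 581 CPM (524 to 644) in RA and 607 CPM (558 to 660.4) in OIR. Microglia followed with 243 CPM (232 to 254) and 307 CPM (291 to 324), and dividing cells had 224 CPM (164 to 300.1) and 279.5 CPM (250.2 to 311). Macrophages were again lowest, with 118 CPM (99.0 to 140.0) in RA and 153 CPM (134 to 175) in OIR. Thus macrophages were under microglia in both chains of Mac-1, and the intervals were apart in each library.

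Itgax, the alpha chain known as CD11c and carried by dendritic cells and by activated microglia, was scarce throughout. RA microglia had 11.2 CPM (9.01 to 13.8) from 89 UMIs and OIR microglia 29.2 CPM (24.3 to 34.9) from 122 UMIs. Macrophages had 12.3 CPM (6.75 to 20.7) and 15.3 CPM (9.61 to 23.2), and dividing cells 19.9 CPM (5.43 to 51.0) and 18.6 CPM (11.6 to 28.1). Monocytes had the most, 30.02 CPM (18.1 to 46.9) in RA and 55.2 CPM (41.0 to 72.8) in OIR. The RA value of dividing cells rests on 4 UMIs and overlaps every other class of that library.

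Itgal, the alpha chain of LFA-1, was found mostly in monocytes. It stood at 581 CPM (524 to 644) in RA monocytes and 331 CPM (295 to 371) in OIR monocytes. In microglia it gave 5 UMIs in RA, or 0.630 CPM (0.205 to 1.47), and 8 UMIs in OIR, or 1.92 CPM (0.828 to 3.78). Macrophages lay between, at 19.4 CPM (12.2 to 29.4) and 22.3 CPM (15.3 to 31.5). Of all Itgal UMIs in the 4 classes of the RA library, 92.7% (89.7% to 95.1%) came from monocytes, which held 6.39% of the UMIs of all genes. In the OIR library the share was 82.6% (78.3% to 86.4%), against 11.8% of the UMIs of all genes.

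The makeup of the alpha chains that pair with Itgb2 therefore differed between classes. Itgam made up 97.7% (97.2% to 98.2%) of the UMIs of Itgam, Itgax, Itgal and Itgad in RA microglia and 93.7% (92.6% to 94.7%) in OIR microglia. In macrophages its share was 87.2% (82.7% to 90.9%) in RA and 86.4% (82.6% to 89.6%) in OIR. In RA monocytes Itgal led with 59.8% (55.8% to 63.7%) and Itgam had 37.1% (33.2% to 41.0%). In OIR monocytes as a whole this order was turned, with Itgam at 55.2% (51.6% to 58.7%) and Itgal at 38.4% (35.0% to 41.9%). It was not turned in the OIR monocytes without C1qa. These had Itgal at 482 CPM (409 to 564) and Itgam at 357 CPM (294 to 428), with overlapping intervals. Those with C1qa had Itgal at 249 CPM (210.5 to 293) and Itgam at 541 CPM (483 to 604). Itgad gave 2 UMIs in RA microglia and 0 in the other classes and libraries. The alpha chains together outnumbered Itgb2 by 2.18 (2.07 to 2.31) in RA microglia and 1.61 (1.51 to 1.73) in OIR microglia. The same ratio was 1.67 (1.47 to 1.91) in RA monocytes and 1.42 (1.27 to 1.59) in OIR monocytes.

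Itga4, the alpha chain of VLA-4, followed the pattern of Itgal. Monocytes had 585 CPM (527 to 647) in RA and 379.9 CPM (341 to 422) in OIR. Microglia had 1.13 CPM (0.519 to 2.15) from 9 UMIs and 3.12 CPM (1.66 to 5.33) from 13 UMIs. Macrophages had 37.9 CPM (27.4 to 51.1) and 48.1 CPM (37.4 to 60.9), and a UMI in 33.7% and 28.2% of cells. Monocytes gave 86.4% (82.8% to 89.5%) of the Itga4 UMIs of the RA library and 75.8% (71.6% to 79.6%) of those of the OIR library. Its partner Itgb1, which also serves many other alpha chains, varied less than Itga4. Itgb1 lay at 199.6 CPM (189.9 to 209.7) and 223 CPM (209 to 238) in microglia, 269 CPM (202 to 351) and 270.3 CPM (241 to 302) in dividing cells, 158 CPM (136 to 183) and 219 CPM (195 to 244) in macrophages, and 269 CPM (229.7 to 312) and 338 CPM (301 to 378) in monocytes, RA before OIR.

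Itgb5, the partner of Itgav, had nearly the opposite order. It stood at 1144 CPM (1120.4 to 1168) in RA microglia and 982 CPM (952 to 1013) in OIR microglia. Dividing cells had 588 CPM (487 to 704) and 673 CPM (627 to 722), and macrophages 535 CPM (494 to 579.6) and 397 CPM (365 to 430.5). Monocytes had the lowest level in RA, 251 CPM (214 to 293), and in OIR, at 435 CPM (393 to 480.3), they overlapped macrophages. Itgav itself showed no such gradient. It lay between 79.4 and 146 CPM in the 4 classes and both libraries, with the highest value in RA macrophages (125 to 170.4) and the lowest in OIR dividing cells (64.2 to 97.2).

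Itga6, a laminin receptor chain, was alike in microglia and macrophages and low in monocytes. Microglia had 194 CPM (184 to 204) and 180.4 CPM (168 to 194), and macrophages 189.6 CPM (165 to 217) and 154 CPM (134 to 176). Monocytes had 55.3 CPM (38.5 to 76.9) in RA and 107 CPM (86.9 to 131) in OIR. Dividing cells had 105 CPM (64.8 to 160.0) in RA, from 21 UMIs, and 183 CPM (159.7 to 209) in OIR. Itga9 was low in every class, between 13.5 and 44.9 CPM, and its intervals overlapped between the classes of the RA library. The highest of these values, in RA dividing cells, came from 9 UMIs.

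To compare classes, the level in each was divided by that in the microglia of the same library. A pair was compared where it held at least 50 UMIs together, and at least 2-fold apart means a log2 ratio of 1 or more in size. A gene with very few UMIs in microglia met this minimum only through the other class, and then counted as higher there. The 3 comparisons of a library share its microglia and are not independent. In monocytes 6 of the 10 integrins were at least 2-fold apart from microglia in RA, 4 higher and 2 lower, and 3 in OIR, 2 higher and 1 lower. Over all genes compared, 26.8% were at least 2-fold apart in RA (11.7% higher and 15% lower) and 17.6% in OIR (10% higher and 7.55% lower). Itgal was 9.85 (8.61 to 11.48) on the log2 scale above microglia in RA and 7.43 (6.44 to 8.66) in OIR. Itga4 was 9.01 (8.07 to 10.15) and 6.93 (6.14 to 7.85) above. These were the largest differences among the members in any comparison. In microglia Itgal had 5 UMIs in RA and 8 in OIR, and Itga4 had 9 and 13. Both thus met the minimum of 50 UMIs only through monocytes, and that they counted as higher followed from this filter. Itgb2 was higher by 1.26 (1.09 to 1.42) in RA and 0.98 (0.84 to 1.13) in OIR. Itgax was higher by 1.42 (0.62 to 2.15) and 0.92 (0.41 to 1.40), but without integration of the libraries its RA value was -0.04. Itgb5 had a log2 ratio of -2.19 (-2.42 to -1.96) in RA and -1.17 (-1.33 to -1.02) in OIR. Itga6 had -1.81 (-2.34 to -1.33) and -0.75 (-1.07 to -0.45). Itgam, Itgb1, Itgav and Itga9 were less than 2-fold apart in both libraries. The median over the 10 members was 0.16 in RA and 0.32 in OIR, against -0.01 and 0.11 over all genes.

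In macrophages 4 of 9 integrins compared were at least 2-fold apart from microglia in RA, 1 higher and 3 lower, and 3 of 9 in OIR, 1 higher and 2 lower. The shares over all genes were 13.1% in RA (6.05% higher and 7.02% lower) and 11.6% in OIR (6.63% higher and 4.93% lower). Itga4 was the one above microglia, by 5.06 (4.01 to 6.29) in RA and 3.95 (3.08 to 4.93) in OIR. Itgb5 had a log2 ratio of -1.10 (-1.22 to -0.98) in RA and -1.31 (-1.44 to -1.18) in OIR. The Mac-1 chains stood near the limit of 2-fold, Itgam at -1.26 (-1.46 to -1.08) and -0.96 (-1.13 to -0.80), and Itgb2 at -1.04 (-1.30 to -0.79) and -1.003 (-1.22 to -0.80). Itgav was higher by 0.66 (0.41 to 0.91) in RA and by 0.20 (-0.06 to 0.45) in OIR. Itgal was not compared, for want of UMIs. The members' median was -0.03 in RA and -0.23 in OIR, against -0.08 and 0.07 over all genes.

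**Figure D2:**
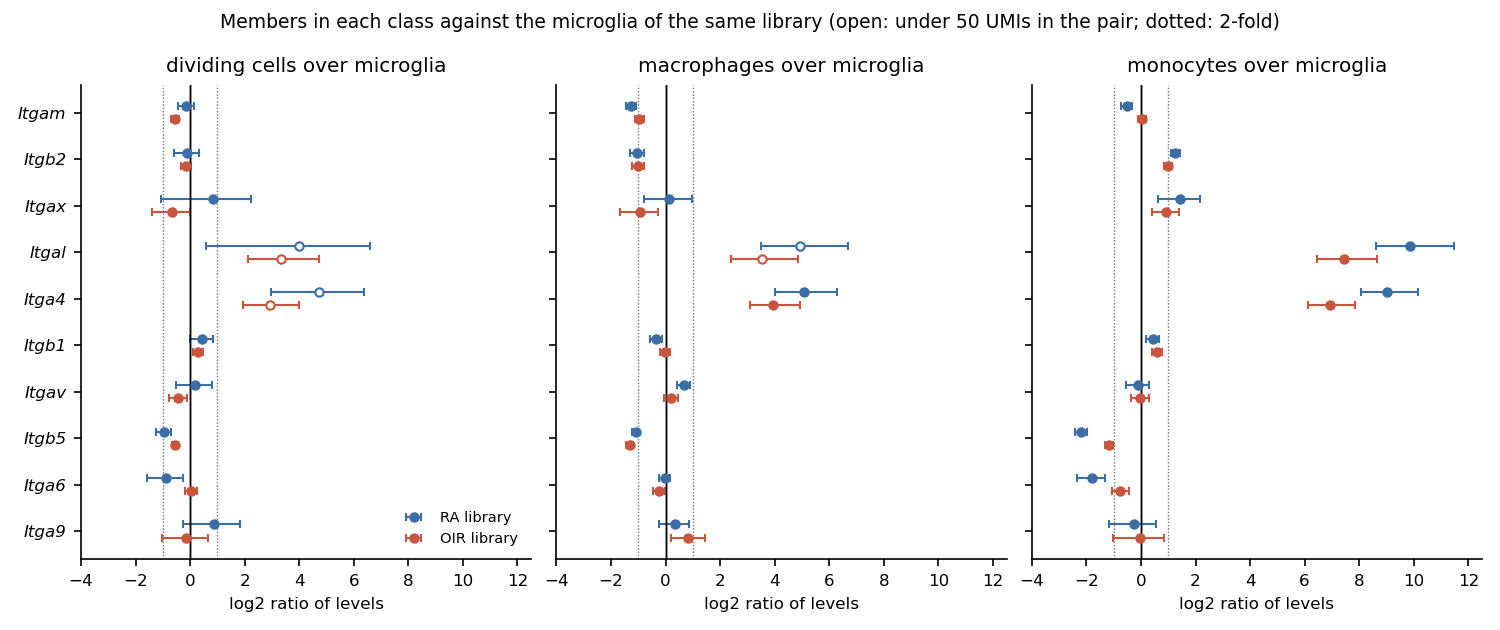
Log2 ratio of each integrin's level in dividing cells, macrophages and monocytes over that in microglia of the RA (blue) and OIR (red) library, with exact 95% counting intervals, open points for pairs with under 50 UMIs and dotted lines at 2-fold. Itgal and Itga4 stood far to the right in monocytes, at 9.85 and 9.01 in RA, and Itgb5 to the left, at -2.19.

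In dividing cells 0 of 8 integrins compared were at least 2-fold apart from microglia in either library. Of all genes 21.7% were so in RA (13.1% higher and 8.69% lower) and 11.3% in OIR (8.9% higher and 2.43% lower). The nearest to the limit was Itgb5 in RA, at -0.96 (-1.23 to -0.70), and Itgax in OIR, at -0.65 (-1.38 to 0.01). Without the filter on the number of genes the RA value of Itgb5 was -1.57, and without integration the OIR value of Itgax was -1.56. In OIR Itgb5 was at -0.54 (-0.66 to -0.44). Also near the limit in RA were Itga6 at -0.89 (-1.58 to -0.27), Itga9 at 0.88 (-0.27 to 1.83) and Itgax at 0.83 (-1.08 to 2.24), each past it under some alternatives. Itgam was at -0.55 (-0.72 to -0.39) and Itgb1 at 0.28 (0.09 to 0.46) in OIR, the latter at -0.03 for means over cells. The members' median was 0.03 in RA and -0.28 in OIR, against 0.12 and 0.11 over all genes. Itgal and Itga4, not compared for want of UMIs, stood at 19.4 and 23.6 CPM in OIR dividing cells, above their levels in microglia, but the UMIs came from few cells. In RA 1 of the 16 dividing cells held both Itgal UMIs and all 6 Itga4 UMIs. That cell also held a Plac8 UMI and 20 UMIs of Ccr2, the chemokine receptor of classical monocytes, whereas the other 15 held 0 of Ccr2. In OIR 12 of the 112 dividing cells held an Itga4 UMI, and these 12 held all 20 Ccr2 UMIs of that class. A Plac8 UMI was seen in 4 of the 12, and the monocyte markers Ly6c2 and Vcan gave 0 UMIs in the whole class. The monocyte markers of the 12 cells summed to 4807 CPM, against 2961 CPM in the 100 cells without Itga4. The cells with Itga4 were also deeper, with a median of 20734 UMIs against 7337 UMIs.

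The monocyte cluster was not uniform in the complement gene C1qa, which microglia and macrophages make in abundance and circulating monocytes do not. A C1qa UMI was seen in 17 of the 52 RA monocytes and 44 of the 92 OIR monocytes, or 32.7% and 47.8%. In rods, which do not make it, the shares were 5.29% and 3.27%, at median depths of 1457 and 1035 UMIs. The monocytes with C1qa were deeper, with a median of 20423 UMIs in RA and 11827 UMIs in OIR, against 7809 and 5236 UMIs in those without. In the 35 RA monocytes without C1qa, Itgb5 was at 33.2 CPM (16.6 to 59.3), Itga6 at 3.01 CPM (0.0763 to 16.8) from 1 UMI, and Itga9 gave 0 UMIs. In the 17 with C1qa the same genes had 491 CPM (415 to 577), 113 CPM (78.2 to 158) and 43.2 CPM (23.0 to 73.8). In the 48 OIR monocytes without C1qa, Itgb5 had 134 CPM (97.3 to 181) and Itga6 had 37.5 CPM (19.4 to 65.6), against 599 CPM (538 to 665) and 145 CPM (116 to 179) in the 44 with C1qa.

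Itgal and Itga4 went the other way. In RA they had 733 CPM (643 to 831) and 721 CPM (632 to 818) without C1qa, and 415 CPM (345 to 494) and 435 CPM (364 to 516) with it. In OIR they had 482 CPM (409 to 564) and 563 CPM (484 to 651) without C1qa, and 249 CPM (210.5 to 293) and 279.99 CPM (239 to 326) with it. Itgb2 was also higher without C1qa, at 684 CPM (598 to 779) against 468 CPM (394 to 552) in RA and 732 CPM (641 to 832) against 539 CPM (482 to 602) in OIR. The intervals of Itgb1 overlapped in each library. Itgam was higher in the cells with C1qa, at 435 CPM (364 to 516) against 292 CPM (237 to 357) in RA. In OIR it was at 541 CPM (483 to 604) against 357 CPM (294 to 428). What part cells of mixed content, free RNA or a change of state had in this split was not tested. Over microglia of the same library, the monocytes without C1qa had Itgb5 at -5.11 on the log2 scale in RA and -2.87 in OIR.

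**Figure D3:**
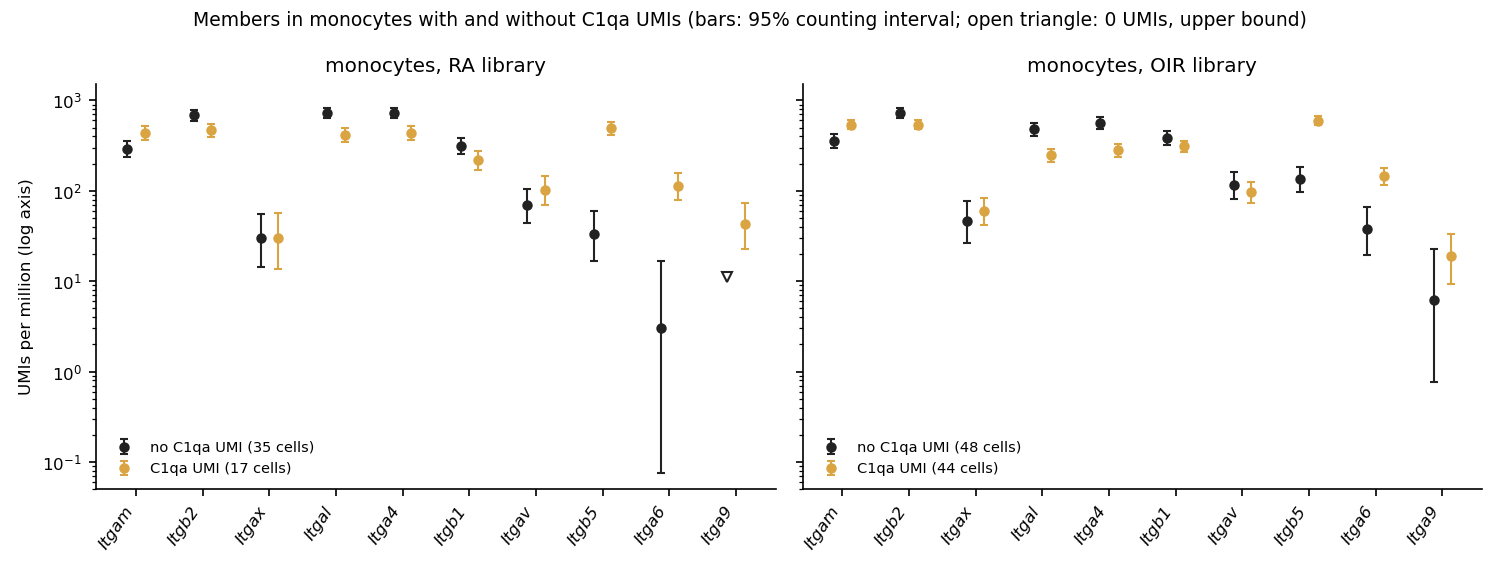
Level of each integrin in CPM (log axis) in monocytes with no C1qa UMI (black) and with at least 1 (ochre), RA library left and OIR library right, with exact 95% counting intervals and an open triangle for the upper bound where no UMI was seen. Itgb5, Itga6 and Itga9 stood lower and Itgal and Itga4 higher in the cells without C1qa. The intervals of Itga9 overlapped in OIR, at 6.26 CPM from 2 UMIs without C1qa and 18.8 CPM from 11 UMIs with it.

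The comparison of OIR with RA asked whether the integrins differed with retinopathy inside a class. In microglia 1 of 8 integrins compared was at least 2-fold apart, against 11.3% of all genes (5.39% higher and 5.89% lower). That one was Itgax, higher in OIR by 1.38 (0.98 to 1.79) on the log2 scale. It lay between 1.21 and 1.49 under the alternatives in processing, with the lowest value for means over cells. Itga9 had a log2 ratio of -0.72 (-1.16 to -0.30). The 6 others differed by less, with Itgb2 at 0.34 (0.23 to 0.44), Itgav at 0.21 (0.03 to 0.38; -0.06 after thinning), Itgb1 at 0.16 (0.04 to 0.28), Itga6 at -0.10 (-0.23 to 0.02), Itgam at -0.16 (-0.24 to -0.08) and Itgb5 at -0.22 (-0.27 to -0.17). The median of the 8 was 0.03, against -0.0015 over all genes.

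In dividing cells 0 of 6 integrins compared were at least 2-fold apart between OIR and RA, against 19.6% of all genes (12.7% higher and 6.92% lower). Itga6 was higher by 0.81 (0.16 to 1.53), but was at -0.07 in cells with at least 2000 UMIs and at -0.13 after thinning. Itgam had -0.58 (-0.91 to -0.24), between -0.96 and -0.08 under the alternatives. In macrophages 0 of 9 were at least 2-fold apart, against 13.9% of all genes (8.64% higher and 5.24% lower). Itgb1 was higher by 0.47 (0.20 to 0.74), but at -0.02 after thinning, and Itgb5 had -0.43 (-0.60 to -0.27), while Itgam was at 0.14 (-0.10 to 0.38). The members' median was 0.10 in dividing cells and 0.14 in macrophages, against 0.14 and 0.15 over all genes.

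In monocytes 0 of 9 integrins were at least 2-fold apart between OIR and RA, against 12.1% of all genes (5.98% higher and 6.14% lower). Itgal had a log2 ratio of -0.81 (-1.04 to -0.59) and Itga4 of -0.62 (-0.84 to -0.41). Itga6 was higher by 0.95 (0.38 to 1.56), Itgax by 0.88 (0.09 to 1.72) and Itgb5 by 0.79 (0.52 to 1.07). Without the filter on the number of genes Itga6 was at -0.14 and Itgb5 at -0.0039, and across the alternatives Itgax lay between 0.40 and 2.20. The directions of Itga6 and Itgb5 in monocytes thus depended on that filter. The members' median was 0.33, against 0.09 over all genes. The share of cells with C1qa also differed, at 32.7% in RA and 47.8% in OIR, and its part in these ratios was not tested. Among cells without C1qa the ratio of Itgal was -0.61 (-0.91 to -0.31) and that of Itga4 -0.36 (-0.64 to -0.07), and among cells with C1qa they were -0.74 (-1.09 to -0.38) and -0.64 (-0.98 to -0.29). Both genes were thus lower in OIR on either side of the split. Itgb5 was at 2.02 (1.04 to 3.12) without C1qa, from 54 UMIs, and at 0.29 (0.01 to 0.57) with it. The 20 markers of the monocyte class differed between the libraries in both directions, with more of them lower than higher in OIR. Among the lower, Ly6c2 was at 219.6 CPM in RA and 98.3 CPM in OIR, Plac8 at 2575 and 1332 CPM, S100a4 at 1081 and 226 CPM, S100a6 at 1520 and 371 CPM, and Ace at 354 and 158 CPM. Among the higher, Ccr2 was at 245 and 374 CPM, Fn1 at 272 and 486 CPM, and Lyz2, the lysozyme of monocytes and macrophages, at 34.8 and 5636 CPM.

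**Figure D4:**
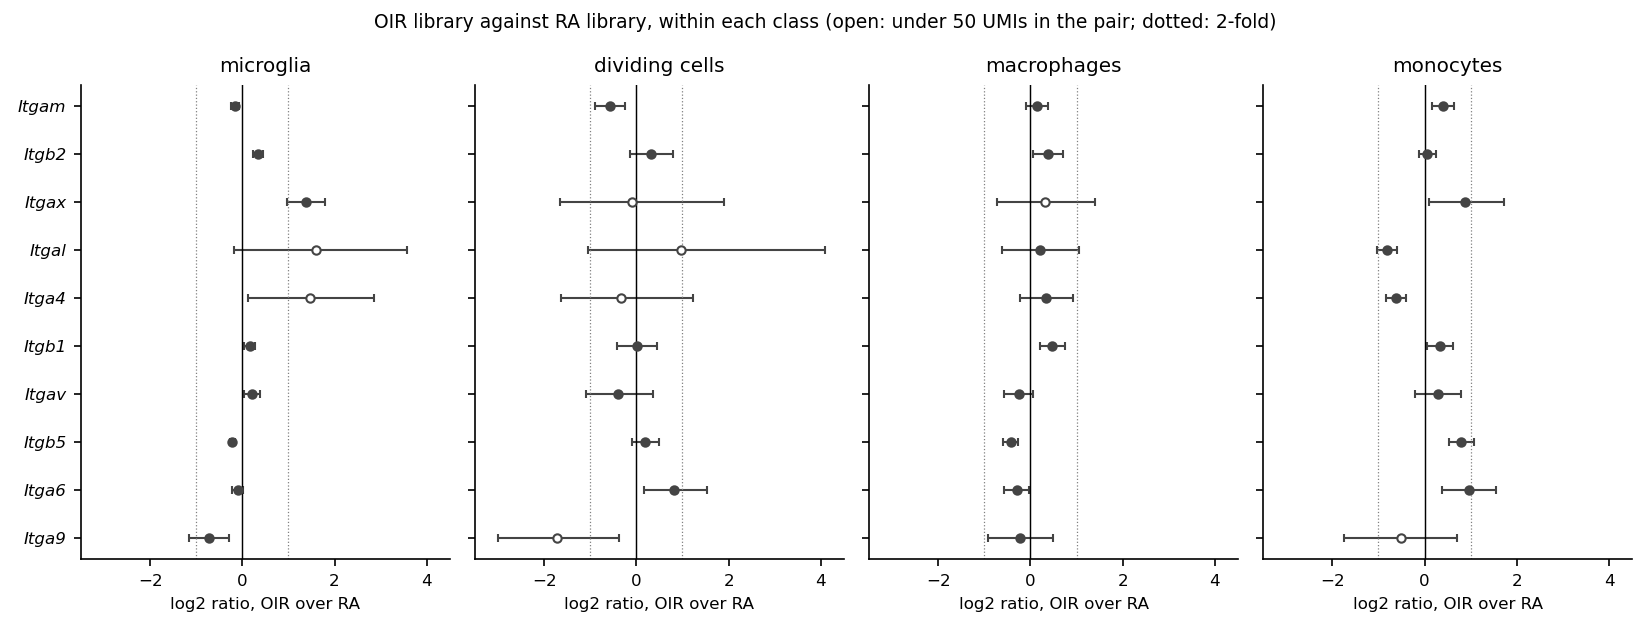
Log2 ratio of each integrin's level in the OIR over the RA library within microglia, dividing cells, macrophages and monocytes, with exact 95% counting intervals, open points for pairs with under 50 UMIs and dotted lines at 2-fold. Among filled points Itgax in microglia, at 1.38, was past the 2-fold line.

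Microglia fell into 6 clusters, of which 3, led by Rrad, Egr3 and Clcf1, had between 3878 and 4342 CPM of the homeostatic genes P2ry12, Tmem119, Siglech and Serinc3, more than the other microglial clusters. These 3 held 690 RA cells and 336 OIR cells, and OIR and RA were also compared inside them. There 1 of 8 integrins was at least 2-fold apart, against 8.42% of all genes. It was again Itgax, at 8.95 CPM in RA and 23.8 CPM in OIR, a log2 ratio of 1.41 (0.91 to 1.91). In each of the 3 clusters taken alone Itgax was higher in OIR, by 1.13 (0.03 to 2.19), 1.34 (0.47 to 2.21) and 1.496 (0.68 to 2.34). In the 3 other microglial clusters the ratio was -0.29 (-1.75 to 1.18), 0.42 (-2.40 to 5.86) and 0.33 (-0.66 to 1.39), each with an interval that included 0. Itgam, at -0.02 (-0.10 to 0.07), and Itgb5, at -0.08 (-0.13 to -0.02), were nearer to 0 than in microglia as a whole. Itgb2 was at 0.34 (0.22 to 0.45), as in the whole class.

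The other microglial clusters held more OIR than RA cells. A cluster led by Mmp12, Gclm and Slc48a1 (7 RA and 78 OIR cells) was shallow, with a median of 2410 UMIs, and had 39.6 CPM of Malat1. Its homeostatic genes summed to 380 CPM, under the monocyte cluster (1409 CPM) and the macrophage clusters (2177 and 1288 CPM). Ptprc was seen in 14.1% of its cells. The cluster was named microglia from C1qa, seen in 98.8% of its cells, and low macrophage markers, and not from leading microglial markers. Its RA cells were too few to describe. In OIR 4 of 8 integrins were at least 2-fold apart from the homeostatic clusters, and so were 44.4% of all genes, whose median was -0.57. Itgam was at 119.7 CPM against 526 CPM, a log2 ratio of -2.14 (-2.69 to -1.63), and Itgb5 at 303 against 1105 CPM, -1.87 (-2.20 to -1.55). Itga6 was at -1.88 (-2.73 to -1.15) and Itgav at -3.95 (-7.00 to -2.09), the latter from 2 UMIs. Itgb2, at 296 against 312 CPM, differed by -0.08 (-0.43 to 0.25). In these cells Itgb2 thus exceeded Itgam, in reverse of the homeostatic clusters. A cluster led by Cryba4 and Crybb1 (68 RA and 113 OIR cells), also shallow with a median of 2766 UMIs and 1269 CPM of Malat1, had 2 of 8 integrins at least 2-fold apart in OIR, against 30.5% of all genes. These were Itgav at -3.29 (-5.18 to -1.92) and Itga6 at -1.33 (-1.93 to -0.78), while Itgb5 was at 871 CPM. In its RA cells 4 of 8 were at least 2-fold apart, against 35.8% of all genes, with Itgam at -1.17 (-1.56 to -0.80), Itgav at -1.22 (-2.29 to -0.33), Itgax at 2.01 (0.82 to 3.02) from 9 UMIs and Itga9 at -1.67 (-4.72 to 0.21) from 2 UMIs. Itga6 was at -0.32 (-0.82 to 0.13) there. The part that depth and the loss of nuclear RNA had in these values was not tested.

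**Figure D5:**
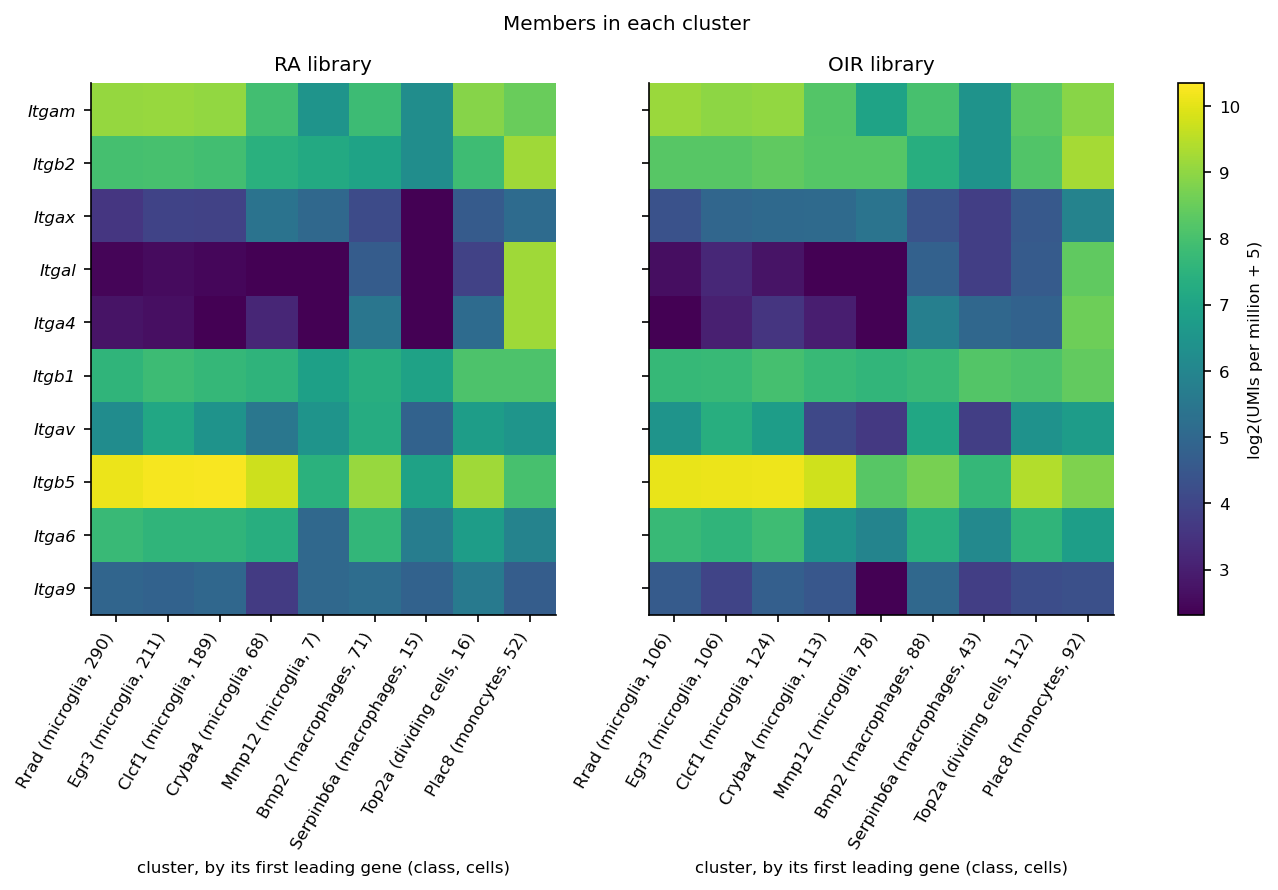
Level of each integrin, as log2(CPM + 5), in 9 clusters of the 4 classes in the RA and OIR library, each cluster named by its first leading gene with its class and number of cells. Itgal and Itga4 were bright in the monocyte cluster led by Plac8, and Itgam and Itgb5 were darker in the shallow cluster led by Mmp12 (119.7 and 303 CPM in OIR) than in the homeostatic clusters.

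Macrophages comprised a deep cluster led by Bmp2, Lyve1 and Mrc1 (71 RA and 88 OIR cells) and a shallow one led by Serpinb6a and Pf4 (15 and 43 cells, with a median of 2275 UMIs and 184 CPM of Malat1). In the OIR cells of the deep cluster Itgam was at 251 CPM and Itgb5 at 413 CPM, and in those of the shallow one they were at 81.8 CPM from 9 UMIs and 200.1 CPM from 22 UMIs. Against homeostatic microglia of the OIR library the deep cluster alone had Itgam at -1.07 (-1.24 to -0.90), Itgb5 at -1.42 (-1.55 to -1.29) and Itga4 at 3.797 (2.86 to 4.87). These 3 differences were thus seen without the shallow cells.

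Shares of cells with a UMI depend on depth, so they were also taken after each cell had been thinned to 2000 UMIs and shallower cells left out. After thinning Itgam was seen in 61.2% of 757 RA microglia and 57.7% of 497 OIR microglia, against 91.7% and 76.2% before. Itgb5 was seen in 86.9% and 79.1% of these microglia. Itgal was seen in 64.7% of 51 RA monocytes and 47.1% of 87 OIR monocytes, against 0.132% and 0.201% of microglia. Itga4 was seen in 62.7% and 60.9% of monocytes. In the 342 rods sorted along, which serve as a measure of free RNA, Itgb2, Itgax, Itgal, Itgav, Itga6 and Itga9 gave 0 UMIs, which at a floor of 3 cells allows a share of up to 0.877% for each (the exact interval reaches 1.07%). Of the rods 1 held Itgam, 1 Itga4, 2 Itgb5 and 3 Itgb1, at a median depth of 1259 UMIs. Before thinning Itgal was seen in 0.637% of RA microglia (0.207% to 1.48%) and 1.40% of OIR microglia (0.606% to 2.74%). Itga4 was seen in 0.892% of RA microglia (0.359% to 1.83%) and 2.27% of OIR microglia (1.22% to 3.86%), and in 0.292% of rods (0.00740% to 1.62%). Each of these intervals overlapped what the rods allow, at the lower depth of rods, and the thinned shares of both genes in microglia lay under 0.877%. The part of free RNA in the few microglial UMIs of Itgal and Itga4, on which the log2 ratios against microglia rest, was not tested.

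Of the 17 further integrin subunits searched, 2 reached 20 CPM in any class. Itgb7, the other partner of Itga4, was at 169 CPM (139 to 204) in RA monocytes and 140.3 CPM (117 to 167) in OIR monocytes. It gave 2 UMIs in the microglia of each library and 0 in macrophages. In RA dividing cells it gave 12 UMIs, seen in 6.25% of the cells, which is 1 cell. In monocytes Itgb7 was thus below Itgb1, at 269 and 338 CPM. Itga5, the fibronectin receptor chain, was at 48.4 CPM (43.7 to 53.5) and 59.7 CPM (52.5 to 67.6) in microglia and at 22.0 CPM (14.3 to 32.5) and 20.2 CPM (13.5 to 29.0) in macrophages. The ratio of macrophages to microglia for Itga5 was -1.13 (-1.78 to -0.55) in RA and -1.56 (-2.17 to -1.004) in OIR. The remaining 15 subunits stayed at or under 19.9 CPM, and 2 of them gave 0 UMIs.

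The activators and adaptors that link integrins to the cytoskeleton and to kinases were 25 genes. In monocytes 12 of 22 compared were at least 2-fold apart from microglia in RA, 9 higher and 3 lower, and 9 of 21 in OIR, 8 higher and 1 lower, against the 26.8% and 17.6% of all genes given before. Their median log2 ratio was 0.72 and 0.69. Cytip, which curbs LFA-1 adhesion by binding cytohesin, was at 567 CPM in RA monocytes and 4.41 CPM in RA microglia, a log2 ratio of 7.01 (6.50 to 7.55), and of 6.49 (5.91 to 7.14) in OIR. Rasgrp2, the exchange factor that switches on Rap1 ahead of integrin activation, was higher by 6.49 (5.67 to 7.41) in RA and 6.66 (5.26 to 8.57) in OIR. The Src-family kinase Fgr was higher by 4.46 (4.08 to 4.85) and 3.60 (3.19 to 4.03). In macrophages 5 of 21 were at least 2-fold apart from microglia in RA and 5 of 20 in OIR, against 13.1% and 11.6% of all genes. Cytip was again higher, by 2.26 (1.45 to 3.05) and 1.60 (0.75 to 2.45), while Fgr was at -2.12 (-4.42 to -0.52) and -1.96 (-3.46 to -0.77), from 3 and 6 UMIs in macrophages. In OIR Tln2, a talin that joins beta tails to actin, was higher in macrophages by 1.61 (1.26 to 1.96). In dividing cells 2 of 20 were apart from microglia in RA and 1 of 19 in OIR, against 21.7% and 11.3% of all genes, and in OIR Src stood at -2.09 (-3.75 to -0.80).

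Between OIR and RA, 1 of 21 was at least 2-fold apart in microglia, against 11.3% of all genes, namely Tln2 at -1.18 (-1.46 to -0.91). In dividing cells, macrophages and monocytes it was 1 of 16, 1 of 18 and 1 of 19, against 19.6%, 13.9% and 12.1% of all genes, and in each case it was Tyrobp. Tyrobp, also called DAP12, is the signalling adaptor of several myeloid receptors and carries signals from beta 2 and beta 3 integrins. It was at 2262 CPM in RA microglia and 1233 CPM in OIR microglia, a log2 ratio of -0.88 (-0.92 to -0.83). The ratio was -1.18 (-1.35 to -1.02) in dividing cells, -1.04 (-1.13 to -0.95) in macrophages and -1.22 (-1.32 to -1.11) in monocytes.

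Among 25 ligands and matrix genes that myeloid cells could offer to integrins, most of those at least 2-fold apart were higher in OIR, dividing cells excepted. The list was chosen with earlier results of these data known, so its counts beside those of all genes are a description only. In microglia 5 of 14 compared were at least 2-fold higher and 0 lower, against 5.39% and 5.89% of all genes, and their median was 0.56. Spp1, osteopontin, a ligand of the Itgav, Itga4 and Itga9 integrins, was at 6.05 CPM in RA and 536 CPM in OIR, a log2 ratio of 6.47 (6.06 to 6.91). Fn1, fibronectin, which is also one of the monocyte markers, was higher by 3.97 (3.45 to 4.53) and Tgfbi, a matrix protein bound by Itgav with Itgb5, by 2.18 (1.84 to 2.54). In macrophages 3 of 10 were higher and 0 lower, against 8.64% and 5.24% of all genes. There Vcam1, the counter-receptor of VLA-4, was at 26.5 CPM in RA and 158 CPM in OIR, higher by 2.58 (2.03 to 3.18), Spp1 by 1.78 (1.52 to 2.05) and Fn1 by 1.13 (0.33 to 1.999). In monocytes 3 of 10 were higher and 0 lower, against 5.98% and 6.14%. Spp1 gave 2410 UMIs in OIR and 0 in RA. With 3 UMIs taken as the floor in RA the log2 ratio was 9.13, and the lower end of its exact interval was 8.83. Tgfbi was higher by 1.46 (1.20 to 1.74) and Thbs1, thrombospondin 1, by 1.11 (0.93 to 1.29). In dividing cells 2 of 9 were higher and 2 lower, against 12.7% and 6.92%. The lower ones, Thbs1 at -4.17 (-4.93 to -3.45) and Fn1 at -1.14 (-1.71 to -0.53), rest on 16 RA cells. Of these, 1 cell had 21426 CPM of the monocyte markers, which include Fn1, against 1479 CPM in the other 15. The part of that cell in the 2 ratios was not tested. The median was 0.07 in dividing cells, 0.41 in macrophages and 0.74 in monocytes.

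Several of these genes also differed between monocytes and microglia within a library. Thbs1 was higher in monocytes by 6.02 (5.64 to 6.43) in RA and 7.77 (7.16 to 8.45) in OIR, and C3, the complement protein whose fragment Mac-1 binds, by 4.53 (3.89 to 5.20) and 3.99 (3.38 to 4.64). In all, 6 of 12 were higher and 3 lower in RA, against 11.7% and 15% of all genes, and 7 of 13 higher and 3 lower in OIR, against 10% and 7.55%. In macrophages 6 of 12 were higher and 3 lower in RA, against 6.05% and 7.02%, and 4 of 12 higher and 3 lower in OIR, against 6.63% and 4.93%. In dividing cells 5 of 12 were higher and 0 lower in RA, against 13.1% and 8.69%, and 1 of 10 higher and 2 lower in OIR, against 8.9% and 2.43%. The RA dividing cells include the cell rich in monocyte markers given before, whose part in the RA count was not tested.

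As a description of which genes had patterns most like the members, log2(CPM + 5) was compared over 19 profiles, each a cluster in 1 library with at least 20 cells, among 9021 genes. These profiles share libraries and differ in depth. They include 26 RA cells of an unnamed cluster and 21 OIR cells of a cluster led by pericyte genes, whose part in the correlations was not tested. Itga4 was most like Rara (Pearson's r = 0.978), Ahnak and Ahr, and Itgal most like Gm21188 (r = 0.974), Gpr141 and Emilin2. Itgb5 was most like F11r (r = 0.963), which encodes the junction protein JAM-A, and Itgam most like Adam10 (r = 0.940), a membrane protease. Itgav had Malat1 among its 3 most like genes across the profiles (r = 0.919). Malat1 was lower in OIR in every class. The log2 ratio of Itgav, OIR over RA, was 0.21 (0.03 to 0.38) in microglia, but -0.06 there after thinning. In monocytes (0.28), dividing cells (-0.40) and macrophages (-0.26) its interval included 0. Whether Itgav and Malat1 moved together between libraries was not tested. Itgb2 was most like Msn (r = 0.886), which encodes moesin, and Itga6 most like Pmepa1 (r = 0.894). Itgb1 (r = 0.857 with Ptpn9), Itga9 (r = 0.867 with Slc46a3) and Itgax (r = 0.773 with Fam129b) had less close matches. Among the members themselves the closest pair was Itgal with Itga4 (r = 0.91), and the most opposed was Itgb5 with Itga4 (r = -0.64).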

How the data were processed

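The deposited matrices hold raw UMI counts per gene and cell, made by the authors with Cell Ranger 3.1.0 (file header) from 3′ droplet libraries, 1 per condition. The submitters' processing notes name mm10 and Seurat 4.0. The totals were 12810892 UMIs in RA and 9835402 in OIR.

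Cells over 20% mitochondrial UMIs and the top 2% by number of genes were left out. The libraries were integrated with Seurat 5.3.0 (R 4.3.3) over 3000 anchor genes less the integrins, activators and ligands, with 30 dimensions. Clusters with Ptprc in at least 10% of cells were clustered again. A cluster took the name of a type with at least 2 markers among its 10 leading genes, or else was named microglia where C1qa was seen in at least 75% of cells and macrophage markers were low. A cluster with none of its type's markers among these genes was left unnamed where its depth was low for its library. This naming rule was written after the clusters were seen. The unnamed cluster (38 cells) had C1qa in 100% of cells, 4168 CPM of the homeostatic genes and 35331 CPM of Malat1. Its median depth relative to that of the library was 0.308. Doublets were called with Scrublet in scanpy 1.11.5 and kept. Clusters left unnamed or led by pericyte genes, 73 cells in all, were not used for levels and ratios. Their profiles with at least 20 cells did enter the comparison of patterns between genes. The levels of 1 microglial cluster on its own are not reported here.

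UMIs were summed per class and library. Intervals are exact (Poisson for levels, conditional binomial for ratios, Clopper-Pearson for shares), from scipy 1.17.1, and a count of 0 entered a ratio as 3 UMIs. The code was tested on simulated data. All 10 members are named, other integrins from 20 CPM, and per comparison the 3 largest ratios of each list, from which the text takes some. The members and lists were chosen with earlier results of these data known. The authors' comparisons were not used.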

Additional observations from a re-analysis of the deposited data

Results flagged for a closer look

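For 3 integrins the log2 ratio of OIR to RA had opposite signs in different classes, each with an interval that did not include 0. With 1 library per condition the difference between classes was not tested. Itgam was at 0.40 in monocytes, -0.16 in microglia and -0.58 in dividing cells. Itgb5 was at 0.79 in monocytes, -0.22 in microglia and -0.43 in macrophages. Itga6 was at 0.95 in monocytes, 0.81 in dividing cells and -0.30 in macrophages. Some of these signs turned with the processing. In monocytes Itga6 was at -0.14 and Itgb5 at -0.0039 without the filter on the number of genes, and in dividing cells Itga6 was at -0.13 after thinning.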

How the results depend on the processing

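No paired analysis was possible because the labels carry no replicate numbers and each condition is 1 library. Of 1381 values of the members' log2 ratios under 17 alternatives, 1235 stayed inside the counting interval, 145 moved outside it and 1, of those at least 2-fold apart, changed sign, that of Itgax in RA monocytes over microglia without integration (-0.0396). Among all 86 ratios 32 changed sign under some alternative, 8 of them with an interval that did not include 0. Of the 86, 27 changed side of the 2-fold limit. The count of integrins at least 2-fold apart moved by more than 1.5 times as follows, and the cause was not tested. The number compared and the share over all genes under each alternative are not given, so the counts cannot be set against them. For OIR over RA, microglia had 2 with a minimum of 20 UMIs. Dividing cells had 1 with a Ptprc limit of 25%, without integration, with classes from marker UMIs and with 20 UMIs. Monocytes had 1 with means over cells, with thinning and without C1qa-bearing cells. For RA dividing cells over microglia the count was 4 with all 3000 anchor genes, 3 with the Ptprc limit of 25% or without integration, 2 when centred or with at least 5 Malat1 UMIs, and 1 without the gene filter, with at least 2000 UMIs, with means over cells, with marker classes and over homeostatic clusters. In OIR it was 2 without integration, with marker classes and with 20 UMIs, and 1 without the gene filter, with at least 2000 UMIs and with means over cells. For macrophages over microglia it was 2 in RA without the gene filter or with marker classes, and 5 in OIR with means over cells or when centred. For OIR monocytes it was 6 without C1qa-bearing cells. The alternatives with homeostatic clusters and without C1qa-bearing cells were chosen after seeing the data. The 16 RA dividing cells, where 1 UMI is worth 4.98 CPM, limit that class.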
